A study of Mus musculus with 12 samples.

Results

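The genes described here encode the enzyme complexes of the mitochondrial electron-transport chain and ATP synthase, and the uncoupling proteins. Of the 20280 probes on the arrays, 38 probes for 36 genes were taken, namely those whose gene name in the scanner files begins with Nduf, Sdha to Sdhd, Uqcr, Cox4 to Cox8, Atp5 or Ucp1 to Ucp3, plus the spots that the study lists for this pathway under other names. Complex I has 14 of these probes, complex II 1, complex III 2, complex IV 9, complex V 11 and the uncoupling proteins 1. The rule itself uses names and spot numbers and no measured value, but the study's list was drawn up from these arrays and the choice was made with earlier results known. Several of the probes need a remark. The files give no gene name for the Atp5g1 spot, which is named through the gene number in the study's list. One of the probes named Uqcrc1 carries a description of another gene (GRIP associated protein), so that its identity is uncertain. Ndufa4 stands with complex I after its name although it is now counted as a subunit of complex IV, and Ndufaf1 is an assembly factor of complex I rather than a subunit. None of the forms that other tissues use (Cox4i2, Cox6a2, Cox6b2, Cox7a1, Cox8b, Cox8c, Ucp1 and Ucp3) had a probe under these names.

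Livers came from male FVB mice, aged 6 weeks, for which the labels name neither a genetic change nor a drug. Fed mice had free access to chow, and the other mice went without chow for 12, 24 or 72 hours in metabolic cages. According to the labels an infrared lamp warmed the cages from 24 hours on, so that at 72 hours fasting and warming cannot be told apart. Each group had 3 arrays and each array carried RNA pooled from 2 livers in the Cy3 channel, against a common reference of 6 fed livers in the Cy5 channel. The livers of the reference bear the same numbers as those of the fed arrays. Values are log2 ratios of sample over reference. An SD is the spread between pools and does not give the spread between mice. The RNA was that of whole liver, in which fewer cells of a type and less RNA per cell cannot be told apart.

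The electron-transport chain of the inner mitochondrial membrane passes electrons from NADH (complex I) and succinate (complex II) by way of ubiquinone, complex III and cytochrome c to oxygen (complex IV), and pumps protons as it does so. ATP synthase (complex V) lets the protons return and makes ATP, whereas uncoupling proteins belong to the carrier family of the inner membrane and can let protons or other ions through without ATP synthesis. In the fasting liver the chain takes up the reducing equivalents that fatty-acid oxidation delivers, and the ATP made supports gluconeogenesis and urea synthesis. All of the genes listed here lie in the nucleus, and most subunits are present in fixed proportions within their complex.

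Each of the 38 probes gave a sample signal well above background on all 12 arrays, and none was saturated. Of 456 member spots, 21 were marked as outliers by the scanner software and left out, of which 10 were on fed arrays, and 24 members had a value on every array. Ndufa10 had a value on only 1 fed array, replicate 1. Among hepatocyte markers, 6 probes for 5 of 16 genes were present and all were well above background on every array.

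Among the arrays, 12-hour replicate 2 and 24-hour replicate 3 stood apart. Their median signals were 4.72 and 3.50 times background, against 5.34 to 10.6 on the other arrays, and they are called the low-signal arrays below. They were singled out with these values known, and limma's array weights, fitted to all probes, were 0.0368 and 0.0986 for them and at least 0.546 for the others. Fed replicate 3 also stood apart, since the highest correlation of its log2 ratios with those of any other array was 0.287. According to the file headers the images were quantified on 3 days. One day held fed replicate 1 and both low-signal arrays. Another held the other fed arrays and the 72-hour arrays, and the remaining day held the other 12- and 24-hour arrays without a fed array.

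The respiratory-chain genes followed these arrays closely. Their median log2 ratio was 0.27, 0.31 and -0.06 on the fed arrays and 0.80, -1.11 and 0.41 on the 12-hour arrays. It was 0.50, 0.35 and -0.43 on the 24-hour arrays and -0.01, 0.66 and 0.52 on the 72-hour arrays. Thus 1 array of the 12-hour group and 1 of the 24-hour group, the low-signal ones, lay far below the others, which were at or above the fed level. On 12-hour replicate 2, 28 of 36 members were at least 1.4-fold below their fed mean, compared with 30.4% of all probes tested, and on 24-hour replicate 3 this held for 25 of 38 members, compared with 18.2%. A further 29.8% and 16.1% of all probes were at least 1.4-fold above fed on these arrays, so that they differed from fed across the whole array and in both directions, whereas 1 member was above by that much on each. On 12-hour replicate 1, by contrast, 18 of 36 members were at least 1.4-fold above their fed mean, compared with 8.65% of all probes. On 12-hour replicate 3 this held for 2 of 38 members, compared with 6.01%. The median of all probes tested lay between -0.07 and 0.01 on every array, where quantile normalization holds it.

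**Figure D1:**
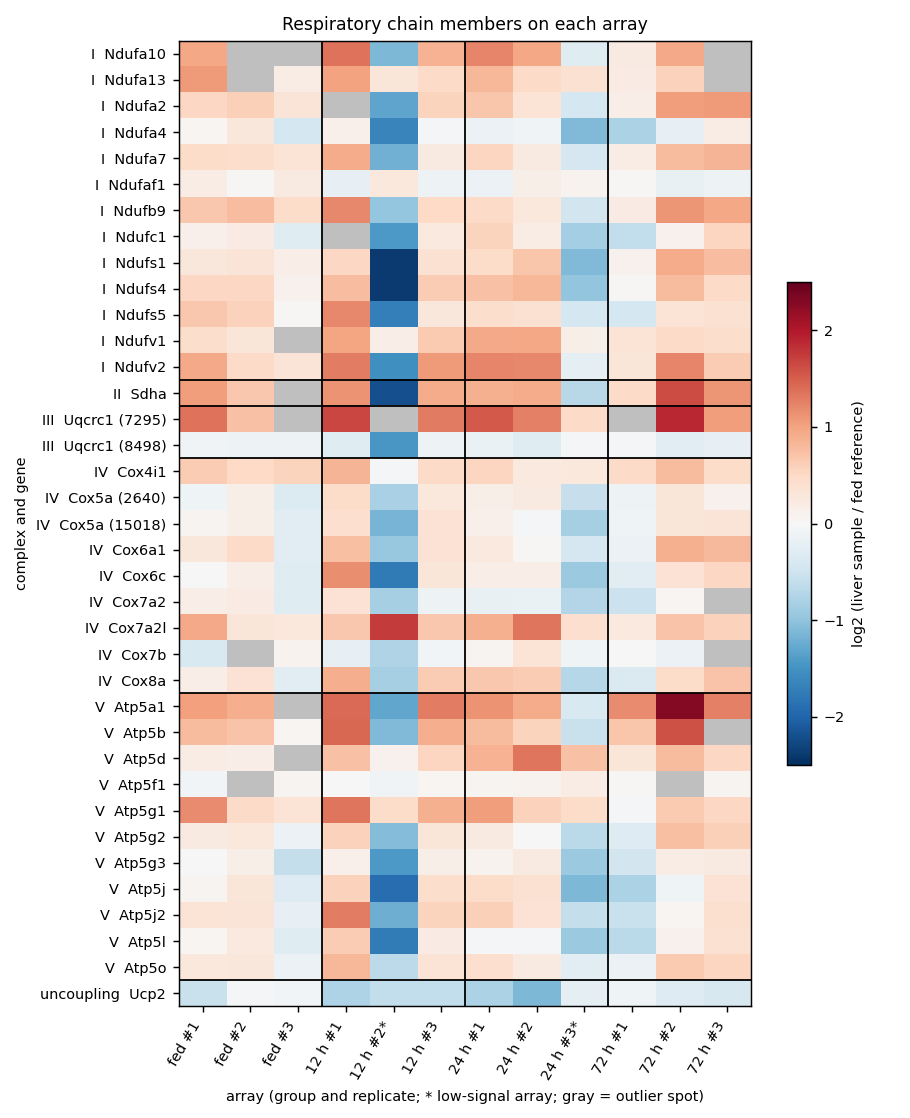
Log2 ratio of liver sample over fed reference for 37 of the probes (rows, by complex) on each of the 12 arrays (columns, by group and replicate). Gray cells are outlier spots, and an asterisk marks the low-signal arrays, on which most rows are blue, down to -2.40 for Ndufs4 on 12-hour replicate 2.

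The spread between arrays within a group was accordingly wide. Over the members with 3 values, the median SD was 0.28 in the fed group, 0.90 at 12 hours, 0.50 at 24 hours and 0.43 at 72 hours. The reference channel, which held the same RNA throughout, varied as well. Relative to the fed mean, the members' median in that channel was 0.74 on fed replicate 1, -0.71 on fed replicate 2 and -0.01 on fed replicate 3, and 0.55 and 0.37 on the low-signal arrays. In the sample channel the low-signal arrays were at -0.81 and -0.26. Relative to the fed mean, both channels thus went with the low ratio on these arrays. Relative to fed replicate 1, of the same quantification day, only the sample channel did. It was at 0.87 on that fed array, where the reference channel was higher than on the low-signal arrays.

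A test of all probes with limma (4 groups, Benjamini-Hochberg adjustment over all probes tested, at least 1.4-fold) found 0 of 38 members changed at 12, 24 or 72 hours against fed and 0 between 72 and 24 hours. Of all probes 0.00497%, 0.00497%, 0.00996% and 0% passed, so that the rule found next to nothing anywhere on these arrays. The smallest adjusted p of a member was 0.955 at 12 hours and 1.00 in the other comparisons. At an unadjusted p under 0.05, 0 members were higher and 0 lower at 12 hours, where 2.00% and 1.94% of all probes were. At 24 hours 1 member was higher (1.76% of all probes) and 0 lower (1.32%). At 72 hours 0 were higher (1.12%) and 0 lower (0.433%), and between 24 and 72 hours 0 were higher (1.62%) and 0 lower (1.81%). The 3 comparisons with fed share the fed arrays, and the fold changes below are therefore given side by side without being related to each other.

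Median log2 fold changes of the 38 members were -0.19, -0.14 and 0.09 at 12, 24 and 72 hours. The probes above the fed mean numbered 10, 11 and 25. When the low-signal arrays were left out, the medians were 0.32, 0.13 and 0.09, and 35, 27 and 25 of 38 members were above fed. The sign at 12 and 24 hours thus turned with 1 array in each group. Within the quantification day that held fed replicate 1 and the low-signal arrays, the medians were -1.40 at 12 hours and -0.89 at 24 hours, each from 1 array against 1. Within the day of the 72-hour arrays the median at 72 hours was 0.19 over 37 members, of which 25 were higher. For the other 12- and 24-hour arrays no fed array of the same day exists, so that for them day and fasting cannot be told apart. With the quantification day as a block in limma, 13 members passed as lower at 12 hours (11.2% of all probes). At 24 hours 5 did (4.72%), and none passed as higher at either time (11.2% and 6.87%). In that fit fed replicate 1 is the only fed array that ties the 12- and 24-hour arrays to fed, and it shares its day only with the low-signal arrays. The other 12- and 24-hour arrays enter only through the difference between 12 and 24 hours. These results thus rest on 1 fed pool and on the low-signal arrays, as do the values within that day. With array weights, by contrast, 7 members passed as higher (5.42% of all probes) and 1 as lower (4.11%) at 12 hours. At 24 hours 4 passed as higher (5.86%) and 1 as lower (4.65%). The direction at 12 and 24 hours therefore depended on how the arrays were weighed against each other, and at 72 hours 0 members passed in either fit.

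**Figure D2:**
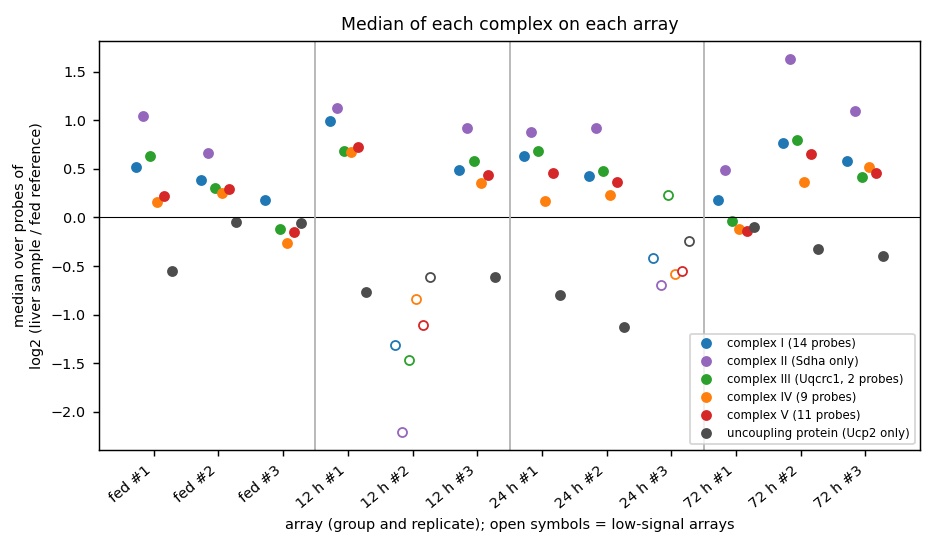
Median log2 ratio of liver sample over fed reference over the probes of each complex (vertical axis) on each array (horizontal axis), with open symbols for the low-signal arrays. Complexes I, II, IV and V drop together on 12-hour replicate 2, to -1.31, -2.20, -0.84 and -1.10, and on 24-hour replicate 3, to -0.42, -0.70, -0.58 and -0.55, while Ucp2 is lowest on 24-hour replicate 2, at -1.13.

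With the low-signal arrays left out, more probes of every kind passed, and the members have to be read against that. At 12 hours 10 members were higher at an unadjusted p under 0.05 (11.1% of all probes) and 2 lower (10.9%), and at 24 hours 4 were higher (15.5%) and 1 lower (15.0%). Among the higher members at 12 hours were Cox5a (both probes), Cox6c, Cox8a, Ndufv1, Ndufv2, Atp5b, Atp5d and Atp5j2, and the lower ones were Ucp2 and Ndufaf1. After adjustment over all probes, 0 members passed at 12 hours (2.60% of all probes), 3 at 24 hours (8.81%), 0 at 72 hours (0.837%) and 0 between 72 and 24 hours (1.31%). The 3 that passed at 24 hours were Atp5d and Ndufv1, which were higher, and Ucp2, which was lower. A share of 3 in 38 is close to that of all probes, so that by this count the members did not stand out at 24 hours. At 12 hours the 10 higher members of 38 were a larger share than the 11.1% of all probes. Of the 12-hour arrays left in that fit, replicate 1 had 18 of 36 members at least 1.4-fold above their fed mean (8.65% of all probes). Replicate 3 had only 2 of 38 (6.01%). The members' median log2 fold change at 12 hours in that fit was 0.32, compared with -0.03 for all probes. As stated above, no fed array of the same day exists for those 12-hour arrays.

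The promoters of these 3 genes are shown because these members passed at 24 hours without the low-signal arrays. The sequences are those of RefSeq (GRCm38.p6) and are windows of 300 bases that span the start of transcription, 5′ to 3′. Atp5d lies at chr10:80142025-80142324 on the + strand (the first of its windows in the table), Ndufv1 at chr19:4012706-4013005 on the - strand and Ucp2 at chr7:100493108-100493407 on the + strand. Capitals mark the GC box, GGGCGG on either strand.
Atp5d: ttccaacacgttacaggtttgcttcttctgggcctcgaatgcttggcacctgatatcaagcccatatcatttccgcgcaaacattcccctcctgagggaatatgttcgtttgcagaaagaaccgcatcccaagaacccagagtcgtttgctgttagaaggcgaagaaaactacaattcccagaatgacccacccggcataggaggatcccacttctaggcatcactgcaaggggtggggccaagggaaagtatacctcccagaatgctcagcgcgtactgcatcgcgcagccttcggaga
Ndufv1: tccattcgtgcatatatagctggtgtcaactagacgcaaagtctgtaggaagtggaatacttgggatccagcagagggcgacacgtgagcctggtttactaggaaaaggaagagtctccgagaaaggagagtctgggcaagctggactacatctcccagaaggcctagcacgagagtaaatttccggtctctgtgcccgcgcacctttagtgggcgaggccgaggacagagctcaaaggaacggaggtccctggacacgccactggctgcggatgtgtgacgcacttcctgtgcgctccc
Ucp2: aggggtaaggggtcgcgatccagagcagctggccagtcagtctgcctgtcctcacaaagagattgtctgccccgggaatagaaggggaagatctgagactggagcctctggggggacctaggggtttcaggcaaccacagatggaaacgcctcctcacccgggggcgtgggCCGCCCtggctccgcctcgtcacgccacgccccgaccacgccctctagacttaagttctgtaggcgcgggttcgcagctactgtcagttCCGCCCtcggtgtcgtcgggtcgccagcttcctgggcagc

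Such windows were at hand for 29 of the 36 member genes. On both strands, the GC box occurred in 13 of the 29, compared with 38.2% of all genes. The NRF1 core GCGCATGC occurred in 4 (Atp5g2, Atp5l, Cox6a1 and Uqcrc1), compared with 3.05%, and the ETS core CCGGAAGT in 1 (Cox8a), compared with 4.31%. Of the promoters shown, only that of Ucp2 held any of these motifs, 2 GC boxes. A match is a string of letters and not a measured binding site.

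Complex I, the entry point for electrons from NADH, was measured by 14 probes. Its median log2 fold change was -0.46, -0.22 and 0.05 at 12, 24 and 72 hours with all arrays and 0.21, 0.09 and 0.05 without the low-signal arrays. Ndufv1, which encodes the flavin- and NADH-binding subunit, had log2 ratios of 0.44 and 0.31 on fed replicates 1 and 2. It was at 0.98, 0.16 and 0.66 on the 12-hour arrays, 0.96, 0.97 and 0.14 on the 24-hour arrays and 0.34, 0.48 and 0.44 on the 72-hour arrays. The low-signal arrays had the lowest values, the other 12- and 24-hour arrays all lay above the fed values, and the 72-hour values lay around them. With all arrays the log2 fold change at 24 hours was 0.31 (SE 0.30) by limma, with an adjusted p of 1.00. It was 0.59 (SE 0.13) with an adjusted p of 0.0277 once the low-signal arrays were left out, and the adjusted p was 0.0516 and 0.0601 when loess or the scanner's own log ratio was then used. The direction turned within the quantification day of 24-hour replicate 3 (-0.30) and with the day as a block (-0.25).

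Ndufv2, the other flavoprotein subunit next to Ndufv1, had log2 ratios of 0.95, 0.48 and 0.33 in the fed group and 1.28, -1.52 and 1.07 at 12 hours. At 24 hours it was at 1.23, 1.20 and -0.24, and at 72 hours at 0.30, 1.22 and 0.63. The values on the low-signal arrays were below all fed values and the others at 12 and 24 hours were above them. The log2 fold change at 24 hours was 0.14 (SE 0.66) with all arrays and 0.63 (SE 0.24) without these arrays, which left an adjusted p of 0.114 in limma. Blocking on the quantification day gave -1.60, and at 12 hours -2.06. Both values rest on fed replicate 1 as the only fed array and on the low-signal arrays.

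The lowest values of complex I on 12-hour replicate 2 were those of Ndufs4, an accessory subunit, at -2.40, and of Ndufs1. Ndufs1, the large iron-sulphur subunit, was at 0.28, 0.32 and 0.17 in the fed group and at 0.52, -2.39 and 0.39 at 12 hours. It was at 0.46, 0.69 and -1.11 at 24 hours and 0.11, 0.92 and 0.78 at 72 hours. Its log2 fold change at 72 hours, 0.35 (SE 0.70), was the highest of the complex among members with at least 2 values in every group, but its 95% confidence interval ran from -1.19 to 1.89. At 12 hours it was -0.75 (SE 0.70), and -2.28 with an adjusted p of 0.00932 with the quantification day as a block. Ndufs5, an accessory subunit, had the lowest one at 72 hours, -0.34 (SE 0.60). Ndufb9, another accessory subunit, had the lowest one at 24 hours, -0.54 (SE 0.48), from 0.68, 0.78 and 0.45 in the fed group and 0.47, 0.26 and -0.45 at 24 hours. This difference was -0.27 (SE 0.26) without the low-signal arrays.

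Some transcripts of complex I followed the low-signal arrays less closely or not at all. Ndufa13 (Grim19 in the files), an accessory subunit that is also known as a cell-death regulator, was at 0.30 on 12-hour replicate 2 and 0.38 on 24-hour replicate 3, compared with 1.07 and 0.19 on fed replicates 1 and 3. These were the lowest values of their groups, but not below the lower fed value. Ndufaf1 was at 0.27 and 0.08 on these arrays, whereas Ndufb9 was at -0.97 and -0.45. The fed values of Ndufaf1 (0.19, 0.03 and 0.23) and those at 72 hours (0.02, -0.19 and -0.13) did not overlap. With all arrays the log2 difference of -0.25 (SE 0.17) did not reach an unadjusted p of 0.05. Without the low-signal arrays the same difference had an SE of 0.11, an unadjusted p of 0.0434 and an adjusted p of 0.356 by limma. Ndufaf1 was the only 1 of 27 members with 3 values in both groups that lay wholly below fed at 72 hours, and 0 lay wholly above, while 9.66% and 9.20% of all probes did so. Ndufa10, also an accessory subunit, was at 0.96 on the only fed array with a value and at 1.35, -1.12 and 0.87 at 12 hours, so that its fold changes rest on that array.

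Complex II was represented by Sdha, the flavoprotein of succinate dehydrogenase, which also works in the tricarboxylic-acid cycle. It was at 1.05 and 0.67 on fed replicates 1 and 2, and at 1.12, -2.20 and 0.92 at 12 hours. It was at 0.88, 0.92 and -0.70 at 24 hours and at 0.48, 1.63 and 1.10 at 72 hours. Apart from the low-signal arrays the values of the groups overlapped. The log2 fold changes were -0.91 (SE 0.90), -0.49 (SE 0.90) and 0.21 (SE 0.90) with all arrays, and 0.17 (SE 0.30), 0.05 (SE 0.30) and 0.21 (SE 0.27) without the low-signal arrays. With all arrays the 95% confidence interval at 72 hours, -1.80 to 2.23, includes large changes in either direction. Blocking on the quantification day gave a log2 fold change of -2.71 at 12 hours. This value rests on fed replicate 1 as the only fed array and on the low-signal arrays.

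For complex III only Uqcrc1, a core protein of the cytochrome bc1 complex, had member probes. The probe of undisputed identity had the highest log2 ratio of all members on fed replicate 1, at 1.36, and stood at 0.73 on fed replicate 2. It was at 1.68 and 1.31 on 12-hour replicates 1 and 3, at 1.53, 1.26 and 0.48 at 24 hours, and at 1.88 and 1.05 on 72-hour replicates 2 and 3. Each fasted group overlapped the fed group, and the log2 fold changes were 0.45 (SE 0.43), 0.05 (SE 0.39) and 0.42 (SE 0.43). The probe of uncertain identity behaved differently. It stayed between -0.31 and -0.02 on every array but 12-hour replicate 2, where it was at -1.46. Because the fed values lay close together, between -0.12 and -0.09, it lay wholly below fed at 12 hours.

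Complex IV, cytochrome c oxidase, was measured by 9 probes for 8 genes. Its median log2 fold change was -0.10, -0.16 and 0.18 with all arrays and 0.40, 0.21 and 0.18 without the low-signal arrays, with all 9 probes above fed at 12 hours in the latter case. The pair of probes for Cox5a, a subunit that binds the matrix side of the core, gave like values. One of them was at -0.11, 0.16 and -0.33 in the fed group and at 0.47, -0.82 and 0.27 at 12 hours, and the other at 0.07, 0.15 and -0.26, and at 0.41, -1.16 and 0.36. Their log2 fold changes at 12 hours had opposite signs with all arrays, 0.07 (SE 0.33) and -0.11 (SE 0.40), and the same sign without the low-signal arrays, 0.46 (SE 0.16) and 0.40 (SE 0.16). At 24 hours the latter values were 0.29 and 0.06.

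Among the other subunits of complex IV, Cox6a1, the liver form of an accessory subunit, had the highest log2 fold change at 72 hours, 0.35 (SE 0.43), from fed values of 0.27, 0.48 and -0.26 and 72-hour values of -0.14, 0.89 and 0.81. Cox7a2, the liver form of another small subunit, had the lowest one at 24 hours, -0.39 (SE 0.32), and at 72 hours, -0.26 (SE 0.36). Cox7a2l, which helps complexes III and IV to join into supercomplexes, showed another order of arrays. It was at 0.94, 0.30 and 0.26 in the fed group and at 0.67, 1.75 and 0.68 at 12 hours, so that the array on which most members were lowest gave its highest value. At 24 hours it was at 0.89, 1.34 and 0.42 and at 72 hours at 0.24, 0.71 and 0.57. Its log2 fold change at 24 hours was 0.39 (SE 0.34) with all arrays and 0.62 (SE 0.22) without the low-signal arrays, with an adjusted p of 0.089 by limma.

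Complex V, ATP synthase, was measured by 11 probes, 3 of them for the catalytic F1 part. The median log2 fold change of the complex was -0.10, -0.05 and 0.13, and 0.45, 0.15 and 0.13 without the low-signal arrays. Atp5d, the delta subunit of the central stalk of F1, was the only member that reached an unadjusted p under 0.05 with all arrays. It was at 0.19 and 0.16 on fed replicates 1 and 2, while fed replicate 3 was an outlier spot. It was at 0.73, 0.11 and 0.54 at 12 hours, at 0.87, 1.33 and 0.73 at 24 hours and at 0.29, 0.79 and 0.52 at 72 hours. Every 24-hour value, that of the low-signal array included, was above the fed values. The log2 fold change at 24 hours was 0.80 (SE 0.25, 1.74-fold), with an unadjusted p of 0.00993 and an adjusted p of 1.00 in limma. It was 0.92 (SE 0.19) with an adjusted p of 0.0212 without the low-signal arrays, where the adjusted p was 0.0334 with loess and 0.0359 with the scanner's own log ratio. Within the quantification day of 24-hour replicate 3 it was 0.54, and with the day as a block 0.49 with an adjusted p of 0.315. At 12 and 72 hours it was 0.28 (SE 0.25) and 0.36 (SE 0.25). The change from 24 to 72 hours was -0.45 (SE 0.22), with an adjusted p of 1.00.

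**Figure D3:**
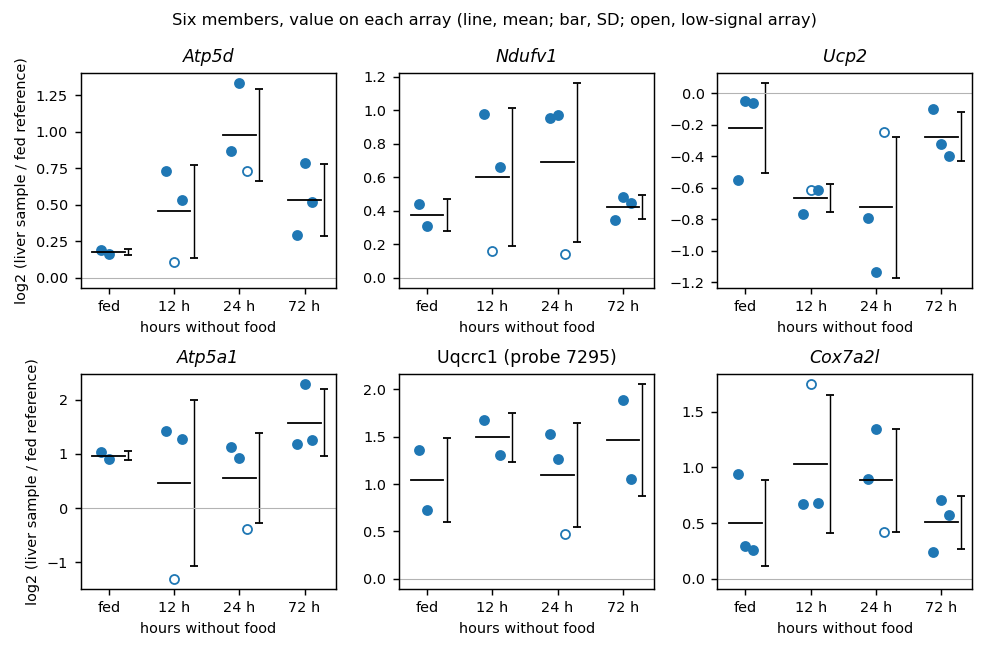
Log2 ratio of liver sample over fed reference (vertical axis) on each array for Atp5d, Ndufv1, Ucp2, Atp5a1, Uqcrc1 (the probe of undisputed identity) and Cox7a2l in the fed, 12-, 24- and 72-hour groups, with open circles for the low-signal arrays, lines for means and bars for SDs. The 24-hour values of Atp5d (0.73 to 1.33) lie above its fed values (0.16 and 0.19), and in Cox7a2l the highest value is that of a low-signal array (1.75).

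Atp5a1 and Atp5b encode the alpha and beta subunits, which together form the catalytic ring. Atp5a1 was at 1.03 and 0.91 on fed replicates 1 and 2 and at 1.43, -1.30 and 1.28 at 12 hours. It was at 1.13, 0.93 and -0.38 at 24 hours and at 1.19, 2.29 and 1.26 at 72 hours, where each value was above the 24-hour values and above both fed values. The log2 difference between 72 and 24 hours was 1.02 (SE 0.69) with all arrays and 0.55 (SE 0.28) without the low-signal arrays, with adjusted p of 1.00 and 0.262 by limma. Of 31 members with 3 values in both groups it was the only one that did not overlap in this comparison, compared with 6.58% of all probes for higher and 8.37% for lower, and 0 members were lower. Atp5b had the highest log2 fold change of the complex at 72 hours, 0.63 (SE 0.69), from 0.80, 0.71 and 0.05 in the fed group and 0.69 and 1.60 on 72-hour replicates 1 and 2. The 3 F1 probes had a median log2 fold change of 0.61 at 72 hours and the other 8 probes of the complex -0.01, a difference that was not tested.

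Of the membrane part, Atp5g1, Atp5g2 and Atp5g3 encode the same mature c-ring protein. Atp5g1 had the lowest log2 fold change of the complex at 72 hours, -0.29 (SE 0.30), from 1.18, 0.49 and 0.34 in the fed group and -0.03, 0.66 and 0.52 at 72 hours. On the low-signal arrays it was at 0.46 and 0.45, whereas Atp5g2 was at -1.08 and -0.67 and Atp5g3 at -1.43 and -0.93. Genes for the same protein hence gave different values on these arrays. Atp5f1, the b subunit of the stator, scarcely varied, with values between -0.09 and 0.18 on all arrays that gave one.

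**Figure D4:**
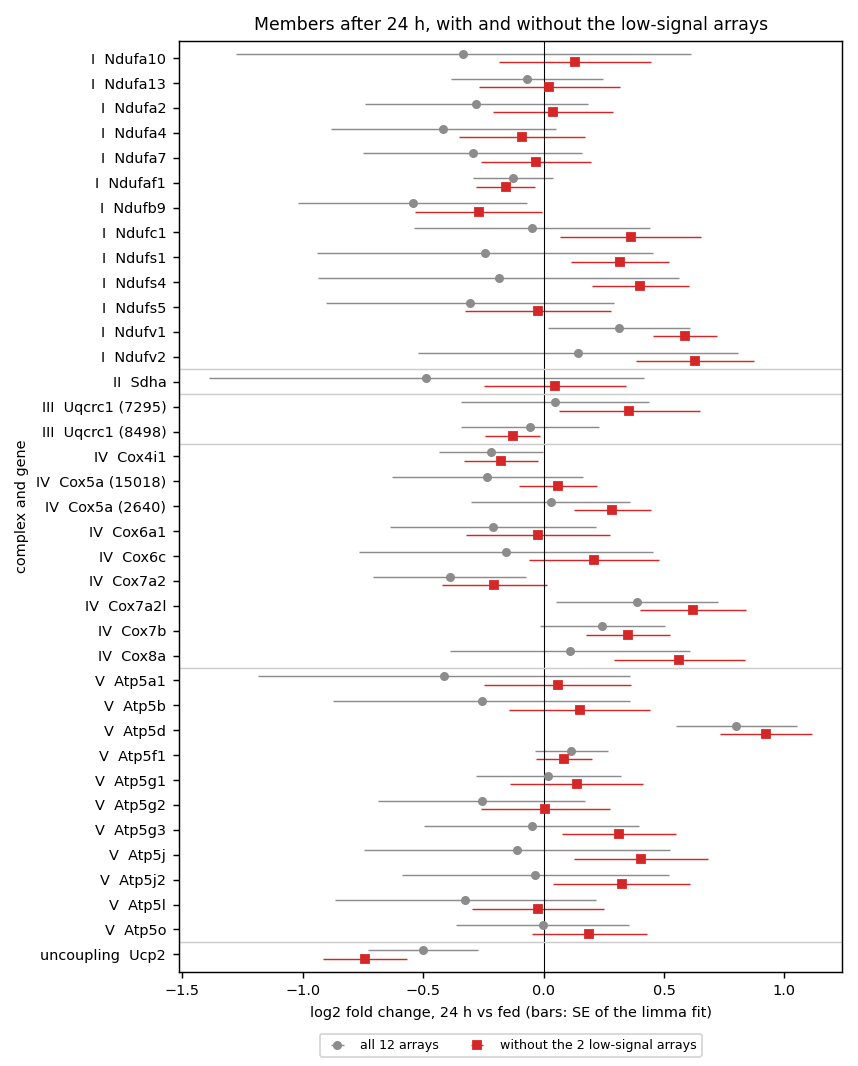
Log2 fold change at 24 hours against fed for 37 of the probes (rows, by complex), from all 12 arrays (gray circles) and without the 2 low-signal arrays (red squares), with bars for the SE of the limma fit. Most red squares lie to the right of 0 (27 of all 38 members were above fed without these arrays, compared with 11 with all arrays), and Atp5d (0.92) and Ucp2 (-0.74) are at the ends.

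Ucp2 is the widely expressed uncoupling protein. It was at -0.55, -0.05 and -0.06 in the fed group, -0.77, -0.61 and -0.62 at 12 hours, -0.79, -1.13 and -0.24 at 24 hours and -0.10, -0.32 and -0.40 at 72 hours. All 12-hour values were below all fed values, whereas 24-hour replicate 3 overlapped the fed group, and at 72 hours the values lay within the fed range. With all arrays its sign at 12 and 24 hours was that of the members' median, and without the low-signal arrays it was the opposite. With all arrays the log2 fold changes were -0.44 (SE 0.23), -0.50 (SE 0.23) and -0.05 (SE 0.23), and the unadjusted p were 0.0783, 0.0511 and 0.817, the adjusted p by limma 0.955, 1.00 and 1.00. With the low-signal arrays left out the log2 fold change at 24 hours was -0.74 (SE 0.17, 1.67-fold lower), with an adjusted p of 0.0271 (0.0509 with loess and 0.0536 with the scanner's own log ratio), and that from 24 to 72 hours was 0.69 (SE 0.17), with an adjusted p of 0.0682. Within the quantification days the differences from fed were -0.06 at 12 hours, 0.31 at 24 hours and -0.22 at 72 hours. Fed replicate 1, the only fed array quantified on the same day as a 12- or 24-hour array, was thus the lowest of the fed arrays and close to the 12-hour values. With the day as a block, the direction turned at 12 hours (0.15) and 24 hours (0.09).

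Counted over members with 3 values in both groups, 2 of 26 lay wholly below fed at 12 hours (Ucp2 and the uncertain Uqcrc1 probe) and 0 wholly above, compared with 6.20% and 6.45% of all probes. At 24 hours 0 of 29 lay wholly above and 0 wholly below, compared with 6.66% and 4.77%. Atp5d and Ndufv1 are not in this count because a fed value is missing.

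In liver Ucp2 is also expressed by macrophages. Of the macrophage and leukocyte markers, 5 probes for 4 of 8 genes (Cd74, Csf1r, Lyz2 and Ptprc) were present, and all were well above background on every array. Their median log2 ratio was between -0.04 and 0.45 on the fed arrays, between -1.44 and 0.09 at 12 hours, between -0.24 and -0.04 at 24 hours and between -0.31 and -0.08 at 72 hours. At 24 hours 4 of the 5 probes were below fed, with a median log2 fold change of -0.31 with all arrays and -0.30 without the low-signal arrays. At 72 hours, where Ucp2 was at -0.05, 4 of the 5 were again below fed, with a median of -0.36. Their part in the result for Ucp2 was not tested. The 6 probes of skeletal and heart muscle markers covered 5 of 6 genes. Their median was 0.92 on 12-hour replicate 2, 0.40 on 24-hour replicate 3 and -0.11 to 0.09 on the other arrays. On 12-hour replicate 2 the probes ranged from -0.42 (Myh6) to 1.77 (Acta1). On 24-hour replicate 3 they ranged from -0.80 (a probe for Tnnt2) to 1.02 (Mb). Cidea, the only 1 of 4 brown-fat markers with a probe, was well above background on 9 of the 12 arrays. It was at 1.38 on 12-hour replicate 2 and at -0.48, its lowest value, on 24-hour replicate 3. The hepatocyte markers had medians of -0.11 and -0.10 on the low-signal arrays and of -0.07 to 0.48 on the others. Outlier spots left 4 of their 6 probes on 12-hour replicate 2, from -0.82 (Ttr) to 0.75 (Apoa1), and 3 on fed replicate 3. The part of these differences in the low values of the subunits was not tested either. Hba-a1, an erythroid marker, was at -0.66 to 0.01 on the fed arrays, -1.34 to -0.60 at 12 hours, -1.17 to -0.39 at 24 hours and -1.08 to -0.38 at 72 hours.

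A further 18 subunit probes carry older names in the files and were found through synonyms after the files had been read, without regard to values. They had a median log2 ratio of 0.44, 0.37 and -0.03 on the fed arrays, 0.74, -1.27 and 0.41 at 12 hours, 0.59, 0.44 and -0.56 at 24 hours and -0.13, 0.48 and 0.40 at 72 hours, so that the same arrays were low as for the members. Among them 0 passed the adjusted test with all arrays. Leaving out the low-signal arrays, 17 of 18 were above fed at 12 hours, 13 at 24 hours and 7 at 72 hours, and 1 passed, Atp5mpl, a small subunit of ATP synthase, with a log2 fold change of 0.78 at 24 hours (limma, adjusted p = 0.0496), while 8.81% of all probes passed. Complex II can be read a little further from these, since Sdhb was at 0.90 and 0.72 on fed replicates 1 and 2 and at 0.81, -2.07 and 0.42 at 12 hours, like Sdha, whereas Sdhc dropped less, to -0.59. Uqcrc2 and Uqcrfs1 of complex III were at -1.74 and -1.54 on 12-hour replicate 2.

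The other genes of mitochondrial respiration that were listed had 28 probes for 22 of 56 genes. With all arrays 0 passed the adjusted test. At an unadjusted p under 0.05, 1, 1 and 1 were higher (2.00%, 1.76% and 1.12% of all probes) and 1, 1 and 0 lower (1.94%, 1.32% and 0.433%) at 12, 24 and 72 hours, and the median log2 fold changes were 0.03, 0.17 and 0.23. The higher one was Tfb2m in each case, which encodes a mitochondrial transcription factor, and the lower one a probe for Slc25a5. Tfb2m was at 0.14, 0.04 and -0.13 in the fed group, 0.82, 0.49 and 0.91 at 12 hours, 0.93, 0.97 and 0.37 at 24 hours and 0.42, 0.90 and 0.66 at 72 hours. Every fasted value, on the low-signal arrays too, was above every fed value. Its log2 fold change was 0.74 (SE 0.21) at 24 hours, and 0.93 with an adjusted p of 0.00773 by limma without the low-signal arrays.

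Without the low-signal arrays 4 of the 28 probes passed upwards and 1 downwards at 24 hours, while 8.81% of all probes passed. Besides Tfb2m these were Slc25a3, the phosphate carrier that supplies ATP synthase, at 1.57 on the log2 scale, Cycs, cytochrome c, at 0.73, Ndufaf4, an assembly factor of complex I, at 0.59, and Slc25a5, an ADP/ATP carrier, at -0.98. Of these genes Slc25a3, Slc25a5 and Ndufaf4 had another probe, which gave -0.25, 0.74 and 0.00 and did not pass. For each of these genes the probes thus disagreed. The lower probe of Slc25a5 was at -0.52, -0.05 and 0.14 in the fed group and at -0.83, -1.42 and -0.35 at 24 hours, an order of arrays like that of Ucp2, while the other was at -0.16, 0.30 and -0.41 and at 0.58, 0.73 and -0.73.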

How the data were processed

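Liver RNA was hybridised on 12 Agilent mouse oligonucleotide arrays. The scanner output, as deposited, gives median spot and local background intensities for each dye, and log10 ratios of reference over sample that the scanner software had background-subtracted and dye-normalized. The deposited value table holds the same log10 values with the sign turned (largest difference 4.92e-08 over 243360 values). The authors' Split-Factor ANOVA was not at hand. After 1075 control and 91 retired spots had been left out, 20280 probes remained. Intensities were background-corrected (limma version 3.58.1 in R version 4.3.3, normexp, offset 50), quantile-normalized over 24 channels and turned into log2 ratios against the reference. Outlier spots were left out. No dyes were swapped, so that a probe's dye effect stays in its ratios. It cancels between groups only as far as it is alike on all arrays, which was not tested. A probe entered the test if some group had it well above background on each of its arrays, and was tested by lmFit and eBayes over the 4 groups. Members passed with an adjusted p below 0.05 (Benjamini-Hochberg, whole table) and a difference of 1.4-fold or more, which is the minimum in the study's methods.

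The members, the lists and the low-signal arrays were chosen with earlier results of these data known. Named genes were those of the study, the extremes of each complex at 24 and 72 hours, genes with several probes, members with an unadjusted p under 0.01 and 1.4-fold, Sdh genes and uncoupling proteins. The lists searched comprised hepatocyte, macrophage and leukocyte, erythroid, brown-fat and muscle markers, and electron carriers and transporters, assembly factors, ubiquinone synthesis, and inhibitor and regulators. The steps were tested on simulated data. Alternatives were loess normalization, the scanner's log ratio, plain background subtraction, no filter on dim probes, outlier spots kept, the sample channel alone, replicate or quantification-day blocks, array weights, and arrays left out. The number of arrays and the spread between them limit the precision. One member entered all fits, counts and medians but is not reported here by itself.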

Additional observations from a re-analysis of the deposited data

How the results depend on the processing

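The 12 arrays, of which the 2 low-signal ones stood apart, and missing fed spots limit what could be detected. With all arrays even a change of more than 3 times its SE (Atp5d at 24 hours) did not pass. The number of members that passed was 0 in each comparison under loess, the scanner's log ratio, plain background subtraction, no filter on dim probes, outlier spots kept, the sample channel alone and the replicate block. Blocking on the quantification day gave 13 at 12 hours, 5 at 24 hours and 4 between 72 and 24 hours (22.5%, 11.6% and 10.6% of all probes), and with array weights it was 8, 5 and 2 (9.53%, 10.5% and 4.26%). Without both low-signal arrays it was 3 at 24 hours, and 1 at 24 hours with loess or the scanner's log ratio in addition (5.98% and 9.85% of all probes), settings that were chosen after seeing the data. In the added fits that 1 member was Atp5d. Leaving out each array in turn left 0 members passing in every comparison, and the median log2 fold change of the members ranged from -0.50 to 0.32 at 12 hours, -0.34 to 0.13 at 24 hours, -0.0035 to 0.30 at 72 hours and -0.08 to 0.37 between 72 and 24 hours. Its sign turned at 12 hours without replicate 2 (0.32), at 24 hours without replicate 3 (0.13), at 72 hours without replicate 2 (-0.0035) and between 72 and 24 hours without 24-hour replicate 3 (-0.08). Array weights turned it too at 12 hours (0.31) and 24 hours (0.13).

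With the day as a block the medians were -1.03 at 12 hours, -1.10 at 24 hours and 1.20 between 72 and 24 hours. Within 1 quantification day they were -1.40 at 12 hours and -0.89 at 24 hours. All of these tie the 12- and 24-hour groups to fed only through the low-signal arrays and fed replicate 1. In the sample channel alone the median was -0.29 at 72 hours and -0.46 between 72 and 24 hours, against 0.09 and 0.18 in the ratio. Ndufv2 turned sign with a call at 12 hours under array weights (0.69) and at 24 hours with the day as a block (-1.60). The cause was not tested. A comparison of 72 and 24 hours within 1 day could not be made because no day held both groups. Same-numbered arrays deviated together with correlations of -0.65 to 0.63 (median -0.16), and other pairs with -0.72 to 0.71 (median 0.21). No pairing by number showed, but a weak one could be hidden by the larger differences between arrays. The replicate block gave medians of -0.17, -0.12, 0.13 and 0.18 in the 4 comparisons.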
